A study of Mus musculus with 66 samples.

Results

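Sarcomeric myosin genes were followed through the degeneration and regrowth of mouse gastrocnemius, a calf muscle of mostly fast fibres. They were taken as the 10 myosin heavy and light chain genes with a probe set annotated to that gene alone, of 8252 genes named on the later array version. The heavy chains were Myh3 (embryonic), Myh8 (perinatal), Myh1 (fast, type IIX) and Myh7 (slow, type I). The light chains were Myl4 (embryonic and atrial), Myl1 and Mylpf (fast), Myl3 and Myl2 (slow and ventricular) and Myl6b (a slow and non-muscle essential chain). Where a gene had 2 probe sets, each a set of short oligonucleotides for 1 transcript, the brighter by its mean over 54 arrays was used and the other served as a check.

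The series asked how expression is timed while muscle regenerates, and it holds 66 Affymetrix arrays of total RNA. Muscle was either untreated, from mice whose labels give an age of 8 weeks, or taken after injection of cardiotoxin, a venom toxin that kills muscle fibres. The labels of 10 arrays state the injection as 100 ul at 10 uM. The sources used here give no genotype, strain or sex, and no age for the injected mice. The later array version (Av2) covered untreated controls and 26 time points: 12 h, 1, 2 and 3 d, every 12 h from 3.5 to 10 d, and then 11, 12, 13, 14, 16, 20, 30 and 40 d. Each of these 27 groups had 2 arrays. The earlier version (A) had 12 arrays, 2 each for control, 12 h, 1, 2, 4 and 10 d. Whether paired arrays stand for different mice is not stated, so the spread between them may be technical. Tests of single genes rest only on that spread. Tests of a ratio of 2 genes pooled arrays of several time points, so their spread also holds change with time.

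Thick filaments of muscle are built from myosin, whose paired heavy chains hydrolyse ATP and pull on actin, each with an essential and a regulatory light chain at its neck. Mammalian muscle swaps the genes for these chains as it matures: embryonic and perinatal forms come first, and fast or slow adult forms follow according to fibre type. Regenerating fibres are known to pass through the developmental forms again. RNA from whole muscle was measured, so fewer cells that express a gene and less RNA per cell cannot be told apart.

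Values are deposited intensities on a linear scale, and values under 64.6 (the floor, the 20th percentile of a typical array) were raised to it before taking log2. Per later-version array, 76.4% to 83.4% of probe sets exceeded that floor. Arrays do not all report bright transcripts equally. On 8 arrays (12 h replicate 2, both arrays of 1, 2 and 4 d, and 5 d replicate 1) the manufacturer's b-actin 3' control probe set was only 0.018 to 0.233 times its 5' partner, against 0.571 to 1.38 on the other 46. On 10 arrays (9.5 d replicate 2, 11 d replicate 1, 12 d replicate 2, 14 d replicate 2, 16 d replicate 1, 20 d replicate 2 and both of 30 and 40 d) the Gapdh 3' control stood at 0.026 to 0.232 of its median. Among the 200 brightest probe sets, between 0 and 8 per array lay below an eighth of their median.

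Of the 10 genes, 8 changed over the time course (F test in limma, adjusted p from 3.9e-17 for Myh3 to 5.0e-07 for Myl6b), where 48.7% of all 11997 probe sets tested did. Mylpf (adjusted p = 0.0512) and Myl1 (adjusted p = 0.131) did not pass. Mylpf lay close to the threshold. On the same probe set it passed that F test with quantile normalization (adjusted p = 0.0468), median scaling (0.0332) or the floor doubled (0.0445). It did not pass with 0.5 times the floor or without the filter on low probe sets. For description the times were joined into 6 windows, each set against the same 2 control arrays in limma, with Benjamini-Hochberg adjustment over all probe sets and 0.05 as the threshold. In order, the windows ran from 12 h to 2 d (n = 6 arrays), 3 to 4.5 d (n = 8), 5 to 7.5 d (n = 12), 8 to 10 d (n = 10), 11 to 16 d (n = 10) and 20 to 40 d (n = 6).

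The chains that passed the F test followed a staggered course, and the times of Myl1 and Mylpf, which did not pass, are description only. The highest mean of Myh1 was only 1.26-fold over its control mean. Both 9 d arrays, where Myl1 was highest, stood high in the Gapdh 3' control, at 2.02 and 3.18 of its median. Between paired arrays Myl1 and that control differed together (r = 0.883 over 27 groups, whose points share arrays). Myh3, Myh8 and Myl4 had their highest means at 5.5 d, Myl6b at 6.5 d, Myl1 at 9 d, Mylpf and Myh1 at 10 d, Myh7 and Myl2 at 20 d and Myl3 at 40 d. With single arrays left out, the highest mean of Myh3 lay at 4.5 or 5.5 d, of Myh8 between 5.5 and 6.5 d, of Myl6b between 4.5 and 9 d, of Myl1 between 5.5 and 9 d, of Myh1 between 10 and 12 d and of Myl3 between 20 and 40 d. For Mylpf the highest mean lay at 10 d in 51 of the 54 trials and could lie in the controls, while Myl4, Myh7 and Myl2 kept their time in all 54 trials. Several neighbouring means were close: the means of Myh3 at 4.5, 5, 5.5 and 6 d, and those of Myh1 at 9 times between 7.5 and 30 d, lay within 20% of the highest.

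**Figure D1:**
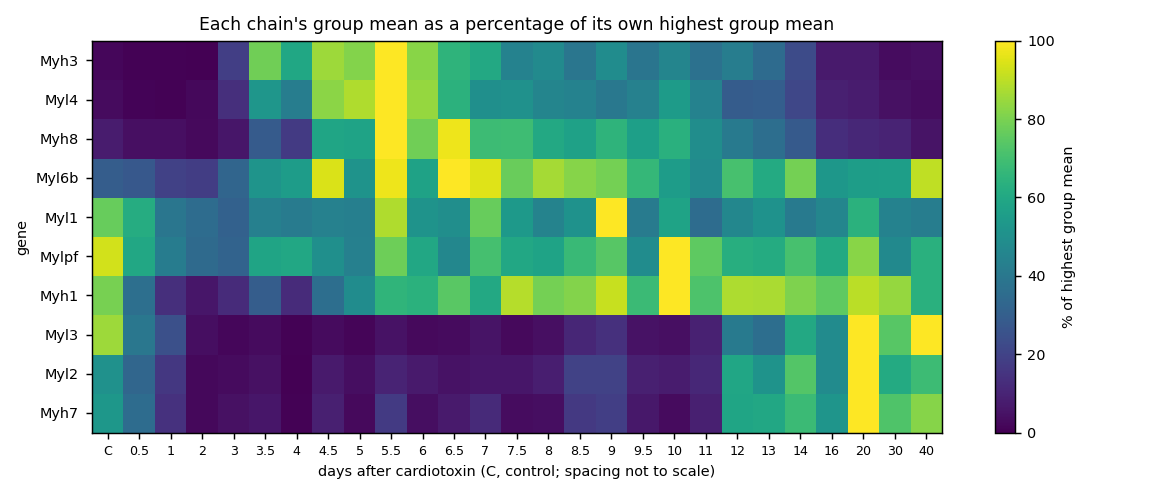
Heat map with a row per chain and a column per group (C, control; days after cardiotoxin, not to scale), coloured by the group's mean intensity as a percentage of that chain's highest group mean. Developmental chains (Myh3, Myl4, Myh8) are highest at 5.5 d. The slow chains (Myh7, Myl2, Myl3) are below 50% of their highest mean from 12 h to 11 d and are highest at 20 or 40 d.

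Embryonic myosin was the most strongly induced chain. Myh3 read 160.1 and 166.3 on the control arrays and fell below the floor on both 2 d arrays (45.1 and 7.74). It then read 1324 and 2413 at 3 d, 8858 and 6740 at 3.5 d, and 11646 and 8318 at 5.5 d. No array from 3 to 14 d came as low as a control.

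The step from 2 to 3 d was at least 27.6-fold, since both 2 d arrays lay under the floor (log2 change 4.79, SE 0.39, limma adjusted p = 1.01e-09), and 4.01% of all probe sets passed between those times (2.41% higher, 1.60% lower). From 3 to 3.5 d it rose another 4.32-fold (2.11, SE 0.39, adjusted p = 0.00721), a step that 0.375% of probe sets passed. Against control the highest mean, 9982 ± 2353 (SD, n = 2) at 5.5 d, was 61.2-fold. The level then drifted down, with 4404 and 4466 at 7.5 d, 3646 to 5631 on the arrays of 8.5 to 9.5 d, 4001 and 4488 at 12 d, and 2615 and 1928 at 14 d.

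A sharp late loss fell between 14 and 16 d, where Myh3 dropped to 558 and 914 (log2 change -1.65, SE 0.39, adjusted p = 0.0288, with 1.30% of all probe sets passing). It was higher than control at each of 21 consecutive times, from 3 to 20 d. In the last window it still averaged 1.34 above control on the log2 scale (SE 0.32, adjusted p = 0.00819), with arrays from 125 to 781 against controls of 160.1 and 166.3. That call ended without either control array (adjusted p = 0.0906 without replicate 1 and 0.0825 without replicate 2). Groups overlapped there, because 30 d replicate 1 lay below both controls.

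Myl4, the embryonic essential light chain that adult atrial muscle retains, traced nearly the same curve. Its control arrays read 526 and 466, and 1 d replicate 1 lay under the floor at 40.7. Values of 1733 and 3056 followed at 3 d, 11290.0 and 7543 at 3.5 d, and 17517 and 18395 at 5.5 d, a mean of 17956 ± 621 (SD, n = 2) that was 36.2-fold over control.

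Its steps from 1 to 2 d (log2 change 1.55, adjusted p = 0.00718), 2 to 3 d (2.72, adjusted p = 8.15e-06) and 3 to 3.5 d (2.00, adjusted p = 0.00454) all passed in limma, where 5.07% of all probe sets did between 1 and 2 d (1.61% lower). Myl4 was the only 1 of the 10 genes to rise between 1 and 2 d, while Myh7 (-3.42, adjusted p = 0.0254) and Myl2 (-2.90, adjusted p = 0.0254) fell. Its 1 d arrays stood 5.36-fold apart, the widest Myl4 pair. The lower of them, 1 d replicate 1, was raised to the floor, so the Myl4 step leans on that array and its size is a lower bound. Both 1 d arrays are among those low in b-actin 3', and so are both 2 d arrays; the part this plays was not tested. At 10 d it still read 10409 and 9330, and at 16 d 1406 and 1778. Its last time above control was 20 d, and at 20 to 40 d as a window its change of 0.82 (SE 0.29) did not pass (adjusted p = 0.089).

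A second, dimmer Myl4 probe set moved the same way by less. It read 899 and 910 in controls and 2321 and 2743 at 5.5 d, and passed in every window up to 11 to 16 d, with log2 changes of 0.87 to 1.26 in the windows from 3 to 16 d. Over the 27 group means Myl4 and Myh3 correlated at r = 0.985 on the log2 scale, a description over points that share 1 time course and the same arrays.

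Perinatal myosin lagged behind the embryonic form. Myh8 read 251 and 347 in controls, 105 and 107 at 2 d, and 187 and 281 at 3 d, so that at 3 d it had not yet passed its control level. At 3.5 d it read 1492 and 741, at 4.5 d 2283 and 2299, and at 5.5 d 4371 and 3445, a mean of 3908 ± 655 (SD, n = 2) that was 13.1-fold over control.

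The lag shows in the comparison of unequal changes on the same arrays. From 12 h to 2 d to 3 to 4.5 d, the log2 ratio of Myh8 to Myh3 changed by -3.72 (exact permutation test over 6 and 8 arrays, adjusted p = 0.00133 over 40 such tests). From 3 to 4.5 d to 5 to 7.5 d that ratio changed by 1.51 (exact permutation test over 8 and 12 arrays, adjusted p = 0.00064). In that second step Myh8 rose by 1.95 (SE 0.13, limma adjusted p = 2.55e-12), while the change of Myh3, 0.43 (SE 0.18), did not pass (adjusted p = 0.0889).

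Myh8 stood at or above 50% of its highest mean in 12 groups, 4.5 to 10 d without a gap, and Myh3 in 8 groups, from 3.5 to 7 d. Like Myh3, Myh8 dropped between 14 and 16 d, from 1230.4 and 997 to 519 and 494 (log2 change -1.13, SE 0.28, adjusted p = 0.0353). Its last single time above control was 14 d, and at 20 to 40 d its change was 0.13 (SE 0.23, adjusted p = 0.849), with arrays from 176 to 463. A second Myh8 probe set averaged only 93.3 over all arrays, near the floor, and went the other way (log2 change -1.29 at 3 to 4.5 d, adjusted p = 0.025), so the perinatal course rests on 1 probe set.

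All 3 developmental chains first went down. At 12 h to 2 d the log2 change was -1.25 for Myh3 (SE 0.32, adjusted p = 0.00248), -1.10 for Myh8 (SE 0.23, adjusted p = 0.00024) and -1.38 for Myl4 (SE 0.29, adjusted p = 0.000305). In that window 8 of the 10 genes fell, Myl1 and Myl6b being the exceptions, where 18.5% of all probe sets fell. Of its arrays only 12 h replicate 1 was not low in b-actin 3', and neither control was low. Set alone against the controls, that array gave -1.29 for Myh3, -0.45 for Myh8, -0.39 for Myh1 and -0.55 for Mylpf. It gave -0.31 for Myh7, -0.73 for Myl3 and -0.13 for Myl2. The parts of time and of the low arrays in these values were not tested. For Myh3 the low values were close to the floor (65.1 to 88.2 on the 12 h and 1 d arrays), and its call ended with the floor doubled (-0.34, adjusted p = 0.454).

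**Figure D2:**
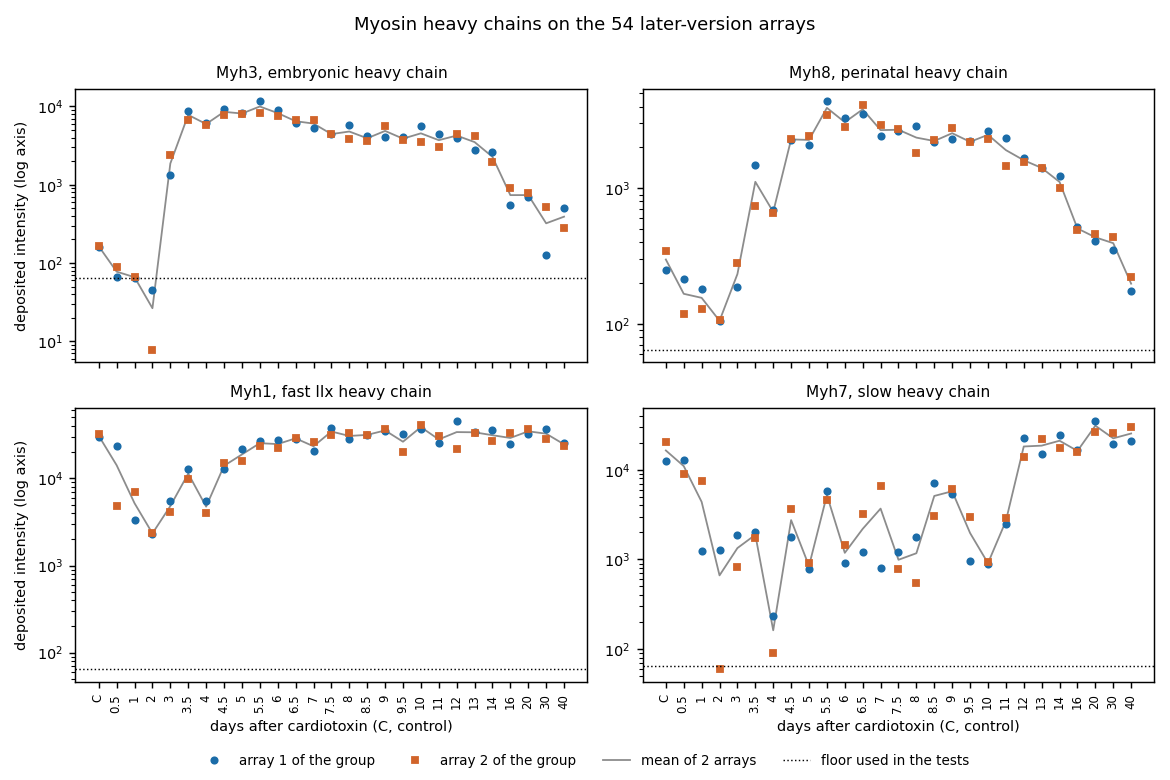
Intensity of the 4 myosin heavy chains on every array of the later version by time group, on a log axis, with points for arrays, lines through group means and a dotted line at the floor. Myh3 leaves the floor between 2 and 3 d, Myh8 follows at 3.5 d and Myh1 is back near 30717.8 (its control mean) by 7.5 d. Myh7 stays below both of its control arrays from 1 to 11 d.

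The promoters of the developmental and adult heavy chains are shown because Myh3, Myh8 and Myh1 lie in 1 cluster on chromosome 11 (gene order Myh3, Myh2, Myh1, Myh4, Myh8) and yet followed different courses. Each is the 250 bases before the gene's start in RefSeq on GRCm38.p6, on the plus strand: chr11:67078050-67078299 for Myh3, chr11:67276874-67277123 for Myh8 and chr11:67199852-67200101 for Myh1. Capitals mark matches to the E-box (CANNTG, bound by Myod1 and Myog among others) and to the MEF2 motif, searched on both strands.
Myh3: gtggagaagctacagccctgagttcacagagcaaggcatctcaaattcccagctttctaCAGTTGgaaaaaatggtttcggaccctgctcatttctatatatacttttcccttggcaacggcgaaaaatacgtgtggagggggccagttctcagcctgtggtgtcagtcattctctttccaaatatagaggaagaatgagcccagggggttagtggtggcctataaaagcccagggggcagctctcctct
Myh8: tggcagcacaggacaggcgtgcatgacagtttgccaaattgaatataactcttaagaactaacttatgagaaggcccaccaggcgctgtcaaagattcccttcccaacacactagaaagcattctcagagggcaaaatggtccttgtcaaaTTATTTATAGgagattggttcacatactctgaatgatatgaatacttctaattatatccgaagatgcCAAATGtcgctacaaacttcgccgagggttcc
Myh1: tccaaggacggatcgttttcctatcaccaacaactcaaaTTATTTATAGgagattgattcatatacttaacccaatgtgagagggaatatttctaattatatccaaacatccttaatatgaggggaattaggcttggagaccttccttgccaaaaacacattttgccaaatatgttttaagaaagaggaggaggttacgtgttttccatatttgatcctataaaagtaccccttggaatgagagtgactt

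Myh1 and Myh8 share a run of 22 bases, tcaaattatttataggagattg, that contains the MEF2 match of each, 211 bases before the start in Myh1 and 99 in Myh8. The next longest run shared by promoters of different genes among the 10 was 11 bases. A MEF2 match stood in 2.92% of 32841 mouse promoters of that length and, among the 12 promoters of the 10 genes, only in these 2. E-box matches are common: 66.2% of all promoters hold one, as did 10 of these 12. The TATA motif (TATAAA, either strand) was found in 12.4% of all promoters and in those of Myh1, Myh3, Myh8, Myl1 and Myl2, 29 bases before the start in Myh3 and 32 in Myh1. These matches describe sequence and were not tested for binding.

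Adult fast myosin fell early and stood near its control level again while slow myosin was still low. Myh1 read 29497 and 31938 in controls, and at 12 h its arrays parted, 23487 and 4767, the lower of them low in b-actin 3'. It bottomed at 2303 and 2367 at 2 d, and read 5516 and 4096 at 3 d, 12894 and 9773 at 3.5 d, and 5476 and 3995 at 4 d. From 4.5 d it climbed, with 12799 and 15047 at that time, 26866 and 23734 at 5.5 d and 37348 and 31504 at 7.5 d.

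Myh1 was lower than control at all 7 times from 12 h to 4.5 d and at none after. By window its log2 change was -2.64 at 12 h to 2 d (SE 0.34, adjusted p = 2.04e-07) and it was 4.00-fold lower at 3 to 4.5 d (log2 SE 0.33, adjusted p = 8.31e-06). From 5 to 7.5 d onward it ranged from -0.28 to 0.06 with no call. The rise from 3 to 4.5 d to 5 to 7.5 d was 1.72 (SE 0.19, adjusted p = 8.55e-08).

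Of the 7 arrays before 4.5 d that were low in b-actin 3', all read 7002 or less for Myh1. Both 3 d arrays, which were not low in b-actin 3', read 5516 and 4096, and the change at 3 d alone was -2.69 (SE 0.42, adjusted p = 4.15e-06). Between the first and second windows Myh1 rose by 0.64 (adjusted p = 0.0323). Without the 8 low arrays that change turned to -1.38 (adjusted p = 0.000409), with 12 h replicate 1 as the only array left in the first window, so its direction is not fixed by these data. Between paired arrays Myh1 and the b-actin 3' control differed together (r = 0.625 over 27 groups, whose points share arrays).

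Slow myosin and the slow light chains passed as lower than control at the most times, with gaps for Myh7 and Myl2. Myh7 read 12582 and 20199.8 in controls, 233 and 91.0 at 4 d, 881 and 936 at 10 d, 2467 and 2886 at 11 d, 22518 and 13793 at 12 d, and 35329.9 and 26598 at 20 d. Myl2, the slow regulatory chain, read 11731 and 16136 in controls, 39.1 and 40.1 at 4 d (both under the floor), 1787 and 2345 at 10 d, 3155 and 3072 at 11 d, 20206 and 12359 at 12 d, and 30538 and 24458 at 20 d. Myl3, the slow essential chain, read 17439 and 16481 in controls, 26.5 and 155 at 4 d, 767 and 874 at 10 d, 2472 and 1201 at 11 d, 9761 and 6512 at 12 d, and 15686 and 24103 at 40 d.

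No array from 12 d on came as low as any of the 11 d arrays for these 3 genes. The direct contrast of 12 with 11 d did not pass for any of them, in a comparison that 0.100% of all probe sets passed, though all 3 had an unadjusted p under 0.05. Between the windows 8 to 10 d and 11 to 16 d, Myh7 rose by 2.56 (SE 0.42, adjusted p = 0.000291), Myl3 by 2.38 (SE 0.38, adjusted p = 0.000267) and Myl2 by 1.83 (SE 0.35, adjusted p = 0.00146). In that step 6 of the 10 genes changed, against 6.53% of all probe sets: these 3 rose (3.17% of all) and Myh3, Myh8 and Myl4 fell (3.36%).

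By window mean Myl3 had the largest loss from 3 to 10 d. Its log2 change was -5.71 at 3 to 4.5 d with 1 array raised to the floor (SE 0.68, adjusted p = 3.07e-08), -5.05 at 5 to 7.5 d (SE 0.65, adjusted p = 2.42e-07) and -3.78 at 8 to 10 d (SE 0.66, adjusted p = 3.76e-05). Myl2 went to at least -4.60 (both 4 d arrays raised to the floor), -3.15 and -2.13 in the same windows. Myh7 went to -4.05, -3.25 and -2.92, and all of these changes were past the threshold. At 4 d itself both Myl2 arrays and 1 Myl3 array lay under the floor, so the depths of these genes there have no order. Myl3 was lower than control at all 18 times from 1 to 11 d, and Myh7 and Myl2 at 15 times each. Within that span Myh7 did not pass at 5.5, 8.5 or 9 d, nor Myl2 at 8.5, 9 or 11 d. Single Myh7 arrays reached 6574 at 5 to 7.5 d and 7132 at 8 to 10 d, still below both controls. On these probe sets none of the 3 passed against control in the last window (Myh7 0.69, Myl2 0.57 and Myl3 0.05, adjusted p of 0.714 or more), with standard errors of 0.65 to 0.76 that leave changes of that size undetectable.

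Some of these calls leaned on single arrays. Without control replicate 2, Myh7 did not pass at 12 h to 2 d (-2.57, adjusted p = 0.0611) or 8 to 10 d (-2.58, adjusted p = 0.0655), nor did Myl2 at 8 to 10 d (-1.90, adjusted p = 0.12). The last rise of Myl3, from 11 to 16 d to 20 to 40 d (1.46, SE 0.44, adjusted p = 0.0171), ended without 30 d replicate 2 (adjusted p = 0.0649) or 40 d replicate 2 (adjusted p = 0.0609), and without the 11 d arrays (0.98, adjusted p = 0.173).

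The 3 slow genes also moved together where the 2 arrays of a group disagreed. At 1 d they read 1254 and 7508 (Myh7), 929 and 8086 (Myl2) and 835 and 8918 (Myl3). At 2 d the first array was the higher in each, with 1268 and 59.7 for Myh7, 1043 and 129 for Myl2 and 1315 and 170 for Myl3. Over the 27 groups, the difference between paired arrays correlated at r = 0.913 for Myl2 with Myl3, 0.874 for Myl2 with Myh7 and 0.804 for Myl3 with Myh7. Tnni1, the slow troponin I, differed along with them (r = 0.725 to 0.746), and so did Mb, myoglobin, by less (r = 0.540 to 0.669). For the b-actin 3' and Gapdh 3' controls the same correlation with these 3 genes lay between -0.164 and 0.139. For another b-actin control probe set, labelled M, it lay between -0.353 and -0.231. All of these are descriptions over points that share arrays.

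**Figure D3:**
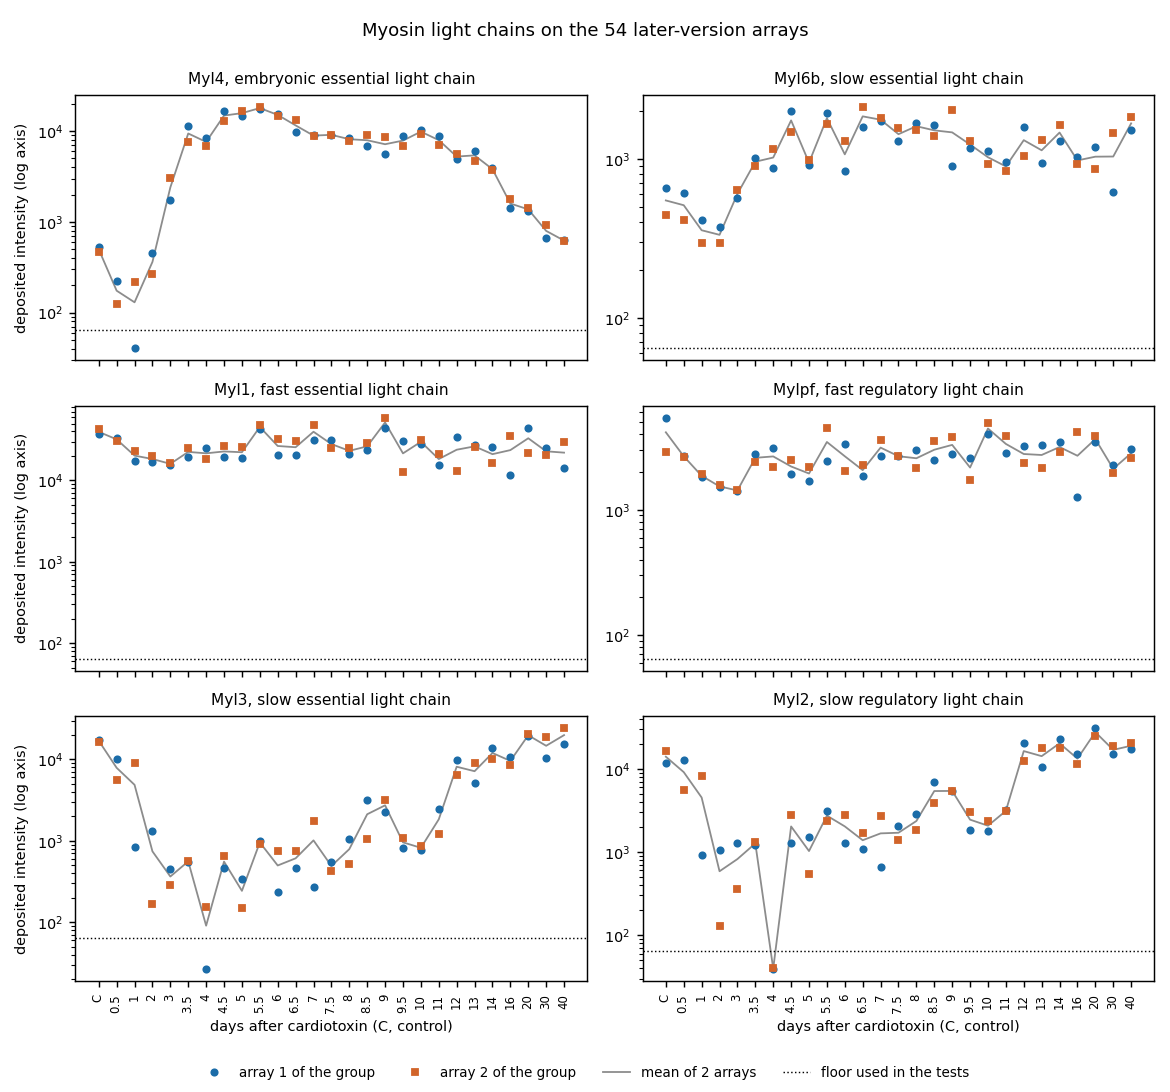
Intensity of the 6 myosin light chains on every array of the later version by time group, on a log axis, with points for arrays and lines through group means. Myl4 is highest at 5.5 d, Myl2 and Myl3 are lowest at 4 d, and Myl1 stays between 11554 and 58958.

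The dip at 4 d stood out from the times on both sides. Compared with the mean of 3.5 and 4.5 d, Myl2 was lower by at least 4.58 log2 units (SE 0.69, adjusted p = 7.76e-05), Myh7 by 3.91 (SE 0.81, adjusted p = 0.00254), Myl3 by at least 2.47 (SE 0.74, adjusted p = 0.0396), Myh1 by 1.42 (SE 0.36, adjusted p = 0.0141) and Myh8 by 1.21 (SE 0.24, adjusted p = 0.00195). Of all probe sets, 3.86% were lower there.

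Both 4 d arrays are low in b-actin 3', and the part this plays in the dip was not tested. On the earlier version, whose b-actin ratio lay between 0.768 and 1.20 on all 12 arrays, the 4 d values also lay below the floor of that version (727) for Myl2 (-41.1 and -12.1), Myl3 (54.9 and 46.8) and Myh7 (-795 and -577). That version has no 3.5 or 4.5 d arrays to set beside it. On it Myh7 also lay below the floor at 2 d (107 and -819) and 10 d (100 and 382). So did Myl2 at 2 d (704 and 36.1) and Myl3 at 10 d (569 and 592). Myl2 at 10 d (2197 and 1523) and Myl3 at 2 d replicate 1 (1406) lay above it. Values under a floor have no order, so that version cannot show whether 4 d was a dip. Single arrays ended 3 of the 5 calls. Myh1 lost its call without 4 d replicate 1 (adjusted p = 0.054), 4 d replicate 2 (0.15) or 4.5 d replicate 2 (0.0511). Myh7 lost it without 4 d replicate 2 (0.0676), and Myl3 without any 1 of the 6 arrays involved (0.0537 to 0.438). The dimmer Myh7 probe set did not pass there (-0.31, limma adjusted p = 0.843), nor did Myh8 with its probe sets averaged (-0.54, 0.317). The Myl3 call also ended with median scaling (0.0529), the floor doubled (0.0946) or the arrays low in Gapdh 3' left out (0.0957).

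The upstream regions of the slow genes are shown to set beside those of the fast and developmental ones, with E-boxes in capitals. They are the 250 bases before the start in RefSeq on GRCm38.p6: chr14:54994627-54994876 on the minus strand for Myh7, chr5:122092474-122092723 on the plus strand for Myl2 and chr9:110763428-110763677 on the plus strand for Myl3.
Myh7: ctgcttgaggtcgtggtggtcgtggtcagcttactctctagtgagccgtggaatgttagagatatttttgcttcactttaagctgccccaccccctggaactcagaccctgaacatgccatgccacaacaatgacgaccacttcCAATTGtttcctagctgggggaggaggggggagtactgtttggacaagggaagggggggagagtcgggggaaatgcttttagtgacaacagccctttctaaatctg
Myl2: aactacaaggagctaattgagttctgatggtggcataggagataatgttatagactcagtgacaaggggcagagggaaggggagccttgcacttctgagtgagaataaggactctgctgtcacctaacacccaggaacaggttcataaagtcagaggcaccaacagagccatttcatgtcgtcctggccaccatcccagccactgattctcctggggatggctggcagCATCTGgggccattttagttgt
Myl3: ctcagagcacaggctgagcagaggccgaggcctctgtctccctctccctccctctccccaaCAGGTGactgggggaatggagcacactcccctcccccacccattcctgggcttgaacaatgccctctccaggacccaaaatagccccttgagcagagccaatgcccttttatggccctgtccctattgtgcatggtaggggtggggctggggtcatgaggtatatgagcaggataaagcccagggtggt

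Myh7 and Myl2 each have another promoter in the table, not printed here. The MCAT motif (CATTCC, either strand), bound by TEAD factors, was found in Myh7 and Myl3 and also in Myh1 and Myl1, against 12.6% of all promoters. A CArG match, the element bound by serum response factor, was found only in Myl3 among the 10 genes, 85 bases before the start, and in 1.47% of all promoters.

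Neither fast light chain passed the main F test on its brighter probe set. Myl1, whose alternative promoters give the fast essential chains MLC1f and MLC3f, read 36693 and 42418 in controls and 15667 and 16289.5 at 3 d, its lowest mean. The only single time at which it passed was 3 d (log2 change -1.30, SE 0.45, adjusted p = 0.0211). As a window, 3 to 4.5 d passed (-0.96, SE 0.35, adjusted p = 0.0293), but not without control replicate 1 (adjusted p = 0.0964) or 2 (0.198).

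Mylpf, the fast regulatory chain, read 5444 and 2884 in controls, 1422 and 1431 at 3 d, and 4013 and 4914 at 10 d. It fell at 12 h to 2 d (-1.01, SE 0.31, adjusted p = 0.00969) and 3 to 4.5 d (-0.88, SE 0.30, adjusted p = 0.0172). Its controls were far apart, and without control replicate 1 those changes were -0.55 (adjusted p = 0.353) and -0.42 (adjusted p = 0.478). A second Mylpf probe set, with closer controls of 2789 and 2304, read 249.3 and 248.3 at 3 d and fell by more, by 2.83 at 12 h to 2 d (adjusted p = 6.4e-07) and by 2.31 at 3 to 4.5 d (adjusted p = 7.79e-06). On that probe set Mylpf changed over the time course (F test adjusted p = 3.2e-07). Its name carries the manufacturer's suffix for probes shared within a gene family, so its probes can match related genes.

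Myl1 tracked the Gapdh 3' control from array to array. In the 6 groups where 1 array was low in Gapdh 3' and its partner was not, Myl1 was lower on the low array in all 6, at 0.325 to 0.729 of the partner. For example it read 35605 and 11554 at 16 d and 34455 and 13214 at 12 d, with the second value from the low array in each case. Mylpf and Myh1 were lower on the low array in 5 of the 6 groups, Myh7 in 4, Myh3, Myh8, Myl4 and Myl2 in 3, and Myl3 and Myl6b in 2. Over all 27 groups the difference between paired arrays correlated at r = 0.883 for Myl1 with Gapdh 3'. With the 10 low arrays left out, Myl1 changed over the time course (F test adjusted p = 0.00114) and so did Mylpf (adjusted p = 0.0164).

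Between neighbouring windows, Mylpf and Myl1 did not separate past the threshold in any of 5 steps, with log2 ratio changes of -0.30 to 0.34 (permutation tests over arrays, unadjusted p = 0.0306 and adjusted p = 0.0609 for the smallest). Myl2 gained on Mylpf by 1.91 into 11 to 16 d (permutation test over arrays, adjusted p = 0.00412). The essential chains did separate. Myl4 rose 5.35 log2 units more than Myl1 into 3 to 4.5 d (exact permutation test over 6 and 8 arrays, adjusted p = 0.00133) and their log2 ratio changed by -2.48 into 20 to 40 d (exact permutation test over 10 and 6 arrays, adjusted p = 0.00133). Myl3 gained on Myl1 by 1.34 into 8 to 10 d and by 2.79 into 11 to 16 d (permutation tests over arrays, adjusted p = 0.00133 and 0.0012). Among heavy chains, the log2 ratio of Myh3 to Myh1 changed by -1.29 into 5 to 7.5 d, by -1.02 into 8 to 10 d and by -2.54 into 20 to 40 d, and that of Myh7 to Myh1 by 2.63 into 11 to 16 d (permutation tests over arrays, adjusted p = 0.00228, 0.00149, 0.00125 and 0.00133). In all, 17 of 40 such changes passed.

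**Figure D4:**
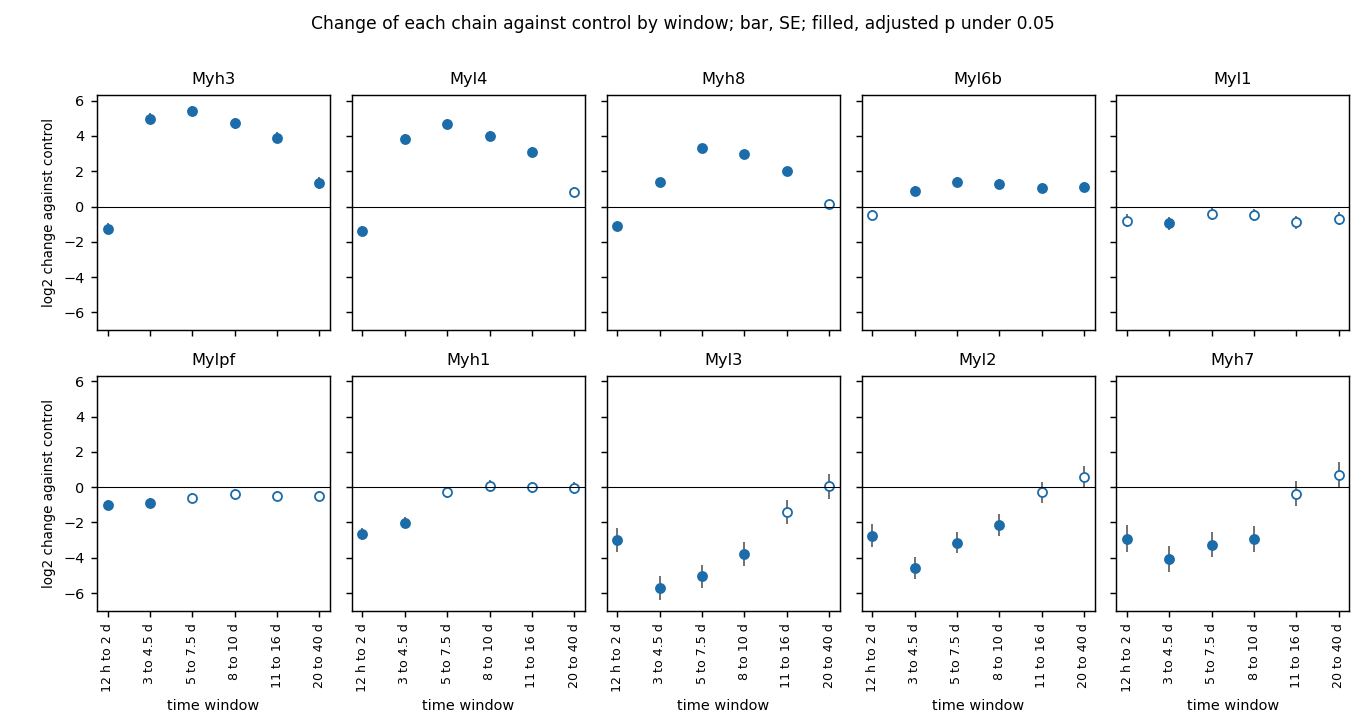
Log2 change against control of each chain in the 6 windows, from limma, with bars of 1 SE and filled points for adjusted p under 0.05. The developmental chains cross from below to above control between the first 2 windows, and the slow chains are below control up to 8 to 10 d.

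Myl6b differed from both patterns. It read 652 and 442 in controls, 370 and 295 at 2 d, 2012 and 1474 at 4.5 d, and 1584 and 2114 at 6.5 d, its highest mean (1849 ± 375, SD, n = 2, 3.38-fold). Its log2 changes against control were 0.90, 1.40, 1.30, 1.07 and 1.12 in the 5 windows from 3 d on, with adjusted p from 4.05e-05 to 0.00801. Among single times it was higher than control at 16, the last being 40 d (1522 and 1819), but not at 11, 16, 20 or 30 d. A second, dimmer Myl6b probe set passed in none of the windows, with changes of -0.15 to 0.12 (limma, unadjusted p of 0.442 or more). Without control replicate 2 the calls at 3 to 4.5 d (0.62, adjusted p = 0.199), 11 to 16 d (0.79, adjusted p = 0.141) and 20 to 40 d (0.84, adjusted p = 0.243) ended. Set against Myl3, the slow essential chain, its log2 ratio changed by 4.09 into 3 to 4.5 d and by -1.36, -2.61 and -1.40 in the last 3 steps (permutation tests over arrays, adjusted p = 0.00285, 0.00285, 0.0012 and 0.00366).

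By window, all 10 genes had changed at 3 to 4.5 d, where 40.7% of all probe sets had, and Myh3, Myh8, Myl4 and Myl6b were the 4 that were higher (22.2% of all probe sets). At 5 to 7.5 d 7 genes had changed (35.1% of all probe sets), with the same 4 higher (19.0%) and Myh7, Myl2 and Myl3 lower (16.1%). The 7 calls at 8 to 10 d were those genes again (30.7% of all probe sets). At 11 to 16 d the 4 calls (24.2%) were all higher, where 13.9% of all probe sets were higher and 10.2% lower. At 20 to 40 d Myh3 and Myl6b passed, both higher (7.13% of all probe sets, 5.01% higher and 2.12% lower). Over single times, 144 of 260 pairs of gene and time passed. By time, 3.06% to 20.4% of all probe sets were higher than control and 1.16% to 16.8% lower.

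Steps between windows located the turns. Into 3 to 4.5 d 7 genes changed (27.5% of all probe sets): Myh3, Myh8, Myl4, Myl6b and Myh1 rose (16.9%), and Myl3 and Myl2 fell (10.7%). The direction of that Myh1 step is not fixed by these data, as said above. Its call also ended with median scaling (0.53, limma adjusted p = 0.0996) or without 12 h replicate 2 (0.25). Into 5 to 7.5 d 5 rose (21.1% changed, 9.16% higher), namely Myh8, Myl4, Myh1, Myl2 and Myl6b. The Myl2 calls in these steps rested on the 4 d arrays. Without them its fall into 3 to 4.5 d went from -1.84 to -0.79 (adjusted p = 0.23) and its rise into 5 to 7.5 d from 1.45 to 0.40 (adjusted p = 0.58), and without the arrays low in b-actin 3' that rise was 0.28 (adjusted p = 0.58). Without the arrays low in b-actin 3' the rise of Myl6b into 3 to 4.5 d, 0.72, did not pass either (adjusted p = 0.153), and without 4.5 d replicate 2 its rise into 5 to 7.5 d did not (adjusted p = 0.052). Into 8 to 10 d 2 fell, Myh3 and Myl4 (2.44% changed, 1.03% higher and 1.42% lower). Into 20 to 40 d Myh3, Myh8 and Myl4 fell and Myl3 rose (19.5% changed, 8.19% higher). Between single neighbouring times, Myh3, Myh8, Myh1 and Myl4 were already lower at 12 h than in controls (22.9% of all probe sets changed). None of the 10 genes passed between 12 h and 1 d in limma, where 10.4% of all probe sets did (5.84% higher), and Myh1 alone had an unadjusted p under 0.05. From 3.5 to 4 d Myh7 and Myl2 fell (3.17%), and from 4 to 4.5 d both rose again with Myh8 and Myh1 (5.02%).

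Macrophage and neutrophil markers were higher from the first window, and fibroblast markers only later. The summed intensity of 13 macrophage markers was 5962 and 9154 in controls, 38522 to 129665 at 12 h to 2 d and 11653 to 18664 at 20 to 40 d. All 13 were higher at 12 h to 2 d (17.7% of all probe sets) and 12 of them at 11 to 16 d (13.9%). Of 12 neutrophil markers, 7 were higher at 12 h to 2 d (17.7% of all probe sets), and their sum went from 3456 and 3861 to between 31081 and 113941. Of 9 fibroblast markers 2 were lower at 12 h to 2 d (18.5% of all probe sets). At 3 to 4.5 d 7 were higher and 1 lower (22.2% and 18.5%), and so they were at 11 to 16 d (13.9% and 10.2%). Their summed intensity was 62976 and 87611 in controls and 101881 to 176106 at 5 to 7.5 d. Adult fibre markers (13 genes) summed to 248189 and 311516 in controls and to 79873 to 174109 at 3 to 4.5 d. At 12 h to 2 d 3 of 7 smooth muscle markers were lower, and of 8 endothelial markers 1 was higher and 1 lower. Of all probe sets 17.7% were higher and 18.5% lower there, so the endothelial counts did not exceed those shares. The part of these cells in the myosin changes was not tested.

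Cardiac markers were read beside these values because Myl4, Myl2, Myl3 and Myh7 are also genes of the heart. Of 8 on that list, Myl4 itself was the 1 that rose at 5 to 7.5 d, and none fell. Of all probe sets 19.0% were higher and 16.1% lower there, so these counts did not exceed those shares. The sum of the 8 markers, Myl4 included, was 1638 and 1905 in controls and 10281 to 20138 at 5 to 7.5 d. The cardiac heavy chain Myh6 (22.8 and 30.5 in controls, 14.4 and 29.5 at 5.5 d) and the atrial light chain Myl7 (30.8 and 27.2 in controls, 42.0 and 44.7 at 5.5 d) stayed under the floor at both. Both Myh7 probe sets carry the manufacturer's suffix for probes shared within a gene family, so their probes can match related heavy chains. The dimmer Myh7 probe set rose between 8 to 10 d and 11 to 16 d too (0.96, SE 0.26, adjusted p = 0.0235) but was not lower than control in any window, and at 20 to 40 d it was higher (1.83, SE 0.48, adjusted p = 0.0156), where the brighter one did not pass.

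Of 11 other myosin genes with a probe set, Myh9 and Myl12b, which belong to non-muscle myosin II, were the 2 that rose at 3 to 4.5 d, by 2.29 (SE 0.19, adjusted p = 1.73e-11) and 1.31 (adjusted p = 1.86e-05), where 22.2% of all probe sets were higher and 18.5% lower. Of the 4 that fell there, Myh11 of smooth muscle was at -1.29 (SE 0.26, adjusted p = 0.000139) and non-muscle Myh10 at -1.17 (adjusted p = 0.0091). Myh4, the fast IIB heavy chain, read 26483 and 42385 in controls and 15725 and 8552 at 3 d, and its change of -0.95 at 3 to 4.5 d did not pass (adjusted p = 0.135). Myh2, the IIA chain, read 33.3 and 32.1 in controls, under the floor, and gave no measure.

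Partners of the thick filament fell with the adult chains. Of 11 with a probe set, 8 were lower and 1 higher at 12 h to 2 d (18.5% and 17.7% of all probe sets), with a median log2 change of -1.77 against 0 over all probe sets. Myom1, which cross-links thick filaments at the M-line, fell by 3.54 at 3 to 4.5 d (SE 0.32, adjusted p = 1.72e-10), and Smyd1, a methyltransferase that assists myosin assembly, by 3.06 at 12 h to 2 d (SE 0.33, adjusted p = 1.05e-08). Myoz1, a Z-disc protein of fast fibres, fell by 3.12 at 3 to 4.5 d (adjusted p = 3.26e-09) and Mybph, a myosin-binding protein, by 3.09 at 12 h to 2 d (adjusted p = 4.37e-08). The one that rose was Hsp90aa1, a chaperone (2.76 at 12 h to 2 d, adjusted p = 2.47e-12).

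Among 15 fast fibre partners, 11 were lower and 1 higher at 3 to 4.5 d (18.5% and 22.2% of all probe sets; median -1.88), with Pgam2, the muscle phosphoglycerate mutase, at -3.46 (adjusted p = 3.38e-08) and Ckm, the muscle creatine kinase, at -3.22 (adjusted p = 1.69e-10). Pvalb, the calcium buffer parvalbumin, was lower at 11 to 16 d (-3.18, SE 1.14, adjusted p = 0.0393). Slow fibre partners did not all share the long trough of Myh7, Myl2 and Myl3: of 11, 7 were lower at 12 h to 2 d (18.5% of all probe sets), and at 3 to 4.5 d 2 were lower and 2 higher (18.5% and 22.2%). Those lower were Mb, myoglobin (-3.35, adjusted p = 5.13e-11), and Tpm3, slow tropomyosin (-2.75, adjusted p = 1.85e-07). Tnnt1, slow troponin T (-2.48, adjusted p = 0.00383), and Atp2a2, the slow calcium pump (-1.83, adjusted p = 0.000797), were lower at 12 h to 2 d. Tnni1, which is also expressed in developing fibres, was -1.45 at 12 h to 2 d (adjusted p = 0.000574), 0.74 at 3 to 4.5 d (adjusted p = 0.0619) and 1.21 at 5 to 7.5 d (adjusted p = 0.00193).

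Of 9 developmental thin filament and synapse genes, 5 were higher at 3 to 4.5 d and 1 lower (22.2% and 18.5% of all probe sets). Chrng, which encodes the gamma subunit of the immature acetylcholine receptor, rose by 5.51 (SE 0.40, adjusted p = 1.52e-12) and Tnnt2, the embryonic and cardiac troponin T, by 4.33 (SE 0.19, adjusted p = 3.64e-17). Chrna1, the receptor's alpha subunit, rose by 2.97 (adjusted p = 3.58e-08), and the 1 lower was Tpm3. Among 17 transcription factors of muscle and fibre type, 4 were higher and 7 lower at 3 to 4.5 d (22.2% and 18.5% of all probe sets). Myog, which drives myoblast differentiation, read 898 and 664 in controls, 7870.3 and 13518 at 3 d, and 11968 and 10574 at 3.5 d, and rose by 3.33 at 3 to 4.5 d (SE 0.27, adjusted p = 2.36e-11). Tbx15 (-2.81, adjusted p = 2.51e-07), a factor of fast fibres, and Nfix (-2.08, adjusted p = 3.19e-08), a factor of fetal muscle, were lower at 12 h to 2 d. Sox6, a repressor of slow fibre genes, was lower at 12 h to 2 d (-2.25, SE 0.30, adjusted p = 3.46e-07), 3 to 4.5 d (-1.98, adjusted p = 1.32e-06) and 5 to 7.5 d (-1.30, adjusted p = 0.00037).

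Genes whose 27 group means most resembled a chain were named by Pearson r on the log2 scale, among 8087 genes and leaving out the 10 chains. For Myh3 they were C1qtnf3 (0.971), Peg3 (0.967), Capn6 (0.960), Tnnt2 (0.956) and Mest (0.948). Myl4 shared 4 of those 5, Capn6 (0.977), Peg3 (0.973), C1qtnf3 (0.966) and Mest (0.955), with Fkbp7 (0.958) as the fifth. Myh8 was closest to Plagl1 (0.952), Maged2 (0.948), Col5a1 (0.934), Meg3 (0.932) and Igf2 (0.923).

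The adult chains resembled other genes. Myh1 was closest to Sypl2 (0.962), Camk2b (0.961), Smoc2 (0.946), Amot (0.935) and Cpxm2 (0.934). Myh7 came closest to Tpm3 (0.926), Acadm (0.866), Idh2 (0.865), Chad (0.864) and Paip2b (0.862), and Myl2 to Coq10a (0.922), Acadm (0.908), Ndrg2 (0.900), Pla2g12a (0.897) and Rnf14 (0.897). Among the chains themselves, Myh7 with Myl2 (0.958), Myh7 with Myl3 (0.942) and Myl2 with Myl3 (0.941) were closer than Myh7 or Myl2 was to any of these genes, and Myl4 with Myh8 (0.926) came ahead of Igf2. The group means all share the same arrays and time course.

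The earlier version was analysed on its own, with a floor of 727 for its noisier values. Its probe sets for Myh3 and Myh8, a second one for Myl4 and a second one for Mylpf were listed at 0 on every array and gave no measure. Of 48 tests of 8 genes, 18 passed; at 4 d 22.8% of all 4459 probe sets tested were higher and 23.8% lower.

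Myl4 read 760.0 and 479 in controls, 8778 and 7275 at 4 d, and 9164 and 9282 at 10 d (log2 changes of at least 3.43, adjusted p = 5.39e-06, and 3.63, adjusted p = 1.71e-06). The probe set of that name on the later version read 1909 and 1254 at 4 d and 1778 and 1717 at 10 d against 899 and 910, a smaller change. Myh1 read 31070 and 31311 in controls and 3104 and 3240 at 2 d, and was lower at 1 d (-2.22, adjusted p = 0.0127), 2 d (-3.30, adjusted p = 0.002) and 4 d (-2.08, adjusted p = 0.0155) but not at 10 d.

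Mylpf read 14492 and 15280 in controls of the earlier version, closer together than on the later one, and was lower at 1 d (-2.06, adjusted p = 0.0138) and 2 d (-2.42, adjusted p = 0.00606). At 10 d Myh7 (at least -3.99, adjusted p = 0.0108) and Myl3 (at least -4.66, adjusted p = 0.0108) were still at the floor, and Myl6b was higher at 4 d (at least 0.55, since control replicate 1 lay under the floor, adjusted p = 0.0186). Several of these calls ended with 1 array fewer: without either control array those of Myh1 at 1 and 4 d, Mylpf at 1 d, Myl3 at 10 d and Myl6b at 4 d, and without control replicate 2 that of Myh7 at 10 d (adjusted p of 0.0506 to 0.0821). Leaving out 1 array of the time itself ended each of them too (adjusted p of 0.0535 to 0.114). Myl1 did not pass at any of the 5 times.

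The versions may share RNA. Sample codes of the control and 12 h arrays are equal on both, and the difference between the 2 arrays of a group correlated across versions over 1697 shared probe sets at r = 0.837 at 12 h, 0.672 at 1 d, 0.455 at 2 d, 0.409 in controls, 0.215 at 4 d and 0.166 at 10 d. Points there are probe sets of the same arrays. The earlier version was therefore not counted as independent.

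**Figure D5:**
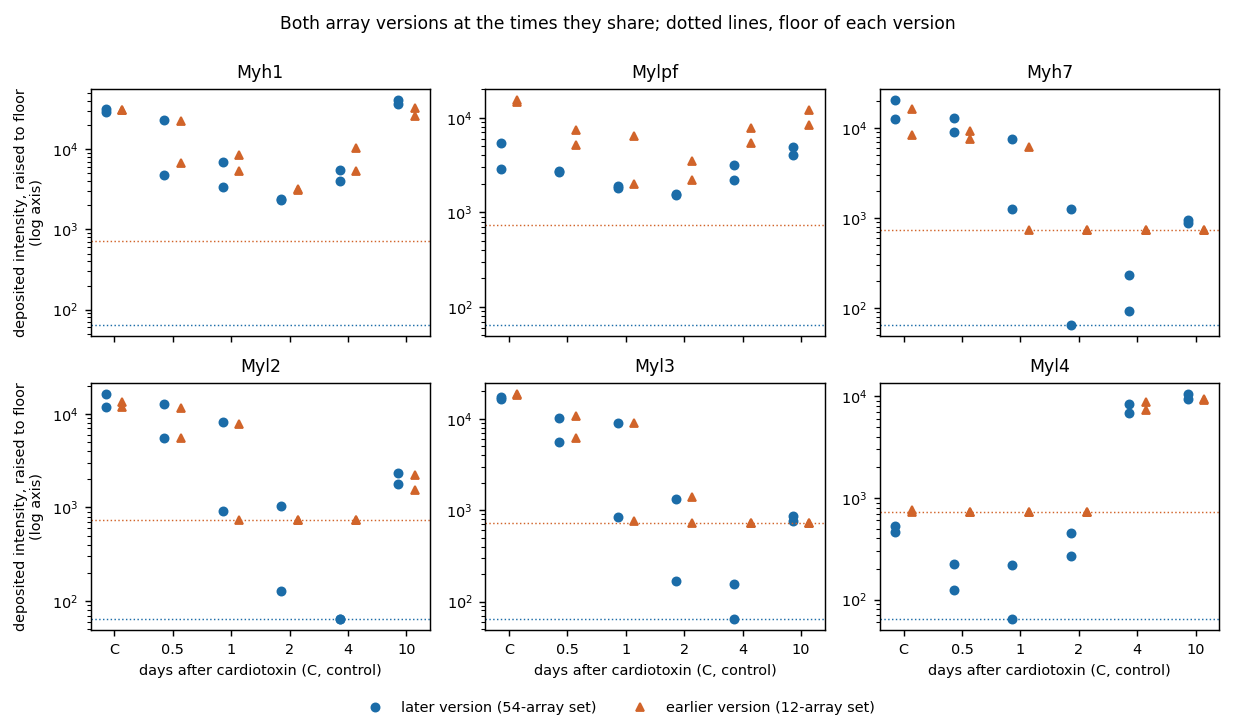
Intensity, raised to each version's floor (dotted lines), of 6 chains on both array versions at the 6 groups they share, on a log axis. Myl4 is read by different probe sets on the 2 versions. Myh1 is low at 1, 2 and 4 d on both versions, and Myl2, Myl3 and Myh7 are at or near their floor at 4 d on both.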

How the data were processed

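The intensity values, 1 per probe set and array, had been processed by the authors before they were deposited; no source used here names the method or unit, and a linear intensity scale was read from the values. The 2% trimmed mean of each later array lay between 800.4 and 800.5, so arrays had been scaled already, and none was added. Of 12654 probe sets on the earlier version, 2611 were 0 on every array and 16.0% of values lay below 0.

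Intensities were floored (64.6; earlier version 727) and log2-transformed. Probe sets above the floor on at least 2 arrays were tested (11997 of 12488; 4459 on the earlier version), without 66 manufacturer controls. limma 3.58.1 in R 4.3.3 was fitted with 1 mean per group, with 27 residual degrees of freedom. Levels are mean ± SD. Ratios of chains were tested by two-sided permutation over arrays, exact or with 100000 resamples. Single arrays were shuffled over whole windows, so the 2 arrays of a time counted as separate and change with time entered the spread. The number of arrays limits the precision. The fit was tested on simulated data: at 5 to 7.5 d, 84% of 100 probe sets changed 2-fold and 99% of 100 changed 4-fold were called. Recovery was scored only in that window, which has the most arrays. The changed probe sets were drawn only from those whose mean lay well above the floor, so none near it was scored. These shares therefore do not give the power for single times, for windows with fewer arrays or for chains near the floor.

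The genes, lists and tests were chosen with earlier results of these data known. All members are named, with the 5 genes most like 6 of them and up to 4 per list with the largest passed change; Hsp90aa1, Tnni1, Myh4, Myh2, Myh6 and Myl7 were named after their values were seen. The alternatives tried, each array left out included, are given at the end. Promoters came from the RefSeq table for GRCm38.p6. Sample codes carry a number and a letter. In 18 groups with both numbers, differences between them correlated at -0.168 to 0.161, so the numbers were not used as pairs. In the other 9 (1, 4, 4.5, 5, 5.5, 11, 12, 13 and 14 d) the 2 codes share a number and differ in the letter, L or R. What these letters mean is not stated, so the spread in those groups may not be between mice.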

Additional observations from a re-analysis of the deposited data

How the results depend on the processing

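Each count of genes past the threshold was recomputed under other scalings, floors, filters and probe set rules and with each array left out. Over the time course the count was 8, and it ranged from 8 to 10 both in the other settings and with single arrays left out. The counts ranged, with single arrays left out, from 7 to 8 at 12 h to 2 d, 8 to 10 at 3 to 4.5 d, 7 to 8 at 5 to 7.5 d, 5 to 7 at 8 to 10 d, 3 to 6 at 11 to 16 d and 0 to 3 at 20 to 40 d (0 without control replicate 2, 1 without control replicate 1). For the step from 5 to 7.5 d to 8 to 10 d, where 2 passed (Myh3 and Myl4, both lower), the range was 1 to 3 (1 without 8 d, 9.5 d or 10 d replicate 2), for 4 d against 3.5 and 4.5 d it was 2 to 5 (2 without 4 d replicate 2, 3 without 4 d replicate 1 or 4.5 d replicate 2), and for the earlier version 10 to 22 of 48 (11 and 10 without control replicate 1 or 2). The second brightest probe set gave 4 genes at 5 to 7.5 d, 4 at 8 to 10 d, 2 at 11 to 16 d and 1 for the step into 8 to 10 d. That step also gave 1 gene with 0.5 times the floor, with probe sets of a gene averaged or without the arrays low in Gapdh 3', and 4 without those low in b-actin 3'. At 20 to 40 d the mean of probe sets and leaving out the low Gapdh 3' arrays each gave 1. Without the arrays low in b-actin 3', 12 h to 2 d rests on 12 h replicate 1 and 1 gene passed. The cause of these moves was not tested, except where fewer arrays remain.

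Changes of sign came mostly from the second brightest probe set, which is near the floor for Myh8 and Myl6b. For Myh8 they were 0.12 at 4 d against its neighbours, -1.29 at 3 to 4.5 d, -0.87 at 5 to 7.5 d, -0.80 at 8 to 10 d, -0.78 at 11 to 16 d, -0.33 into 3 to 4.5 d, 0.0179 into 11 to 16 d and 0.19 into 20 to 40 d. For Myh7 they were 0.83 at 12 h to 2 d, 0.42 at 5 to 7.5 d and 0.12 at 8 to 10 d, and for Myl6b -0.11 at 5 to 7.5 d, -0.0397 at 11 to 16 d, -0.15 at 20 to 40 d and -0.19 into 5 to 7.5 d. The change of Myh8 over Myh3 into 5 to 7.5 d became -0.0197. With 30 and 40 d in place of the controls, Myl6b was -0.33 at 3 to 4.5 d and -0.16 at 11 to 16 d. Myh1 into 3 to 4.5 d was -1.38 without the arrays low in b-actin 3'.

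With the code number as a replicate block, 1 of 120 member changes passed that had not, Myl1 from 3 to 4.5 d to 5 to 7.5 d (0.57, adjusted p = 0.043), and no call was lost. Comparisons of neighbouring times, 4 d against its neighbours and the windows without 4 or 11 d were chosen after seeing the data. Values under the floor have no order, and 2 arrays per group leave many 12 h steps undetectable.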
